A study of Rattus norvegicus with 6 samples.

Results

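Transcription factor genes of the pancreatic endocrine lineage, 8 in all, were compared between adult and 10-day-old rat islets: Nkx6-1, Neurod1, Pax6, Isl1, Pax4, Foxa1, Foxa2 and Foxa3. They were chosen by name, as the probes whose RefSeq transcript belongs to these 8 genes, out of 13903 genes named on an array of 24684 probes. Each was measured by 1 probe printed once per array, and all 8 passed the filter on dim signals. The arrays measured mRNAs and long non-coding RNAs in 1 colour (Cy3). The adult group was islets of 3 adult male rats, 1 rat per array, and the other group was islets of 3 pools of rats at postnatal day 10 (P10), each pool on its own array. All islets had been freed from the pancreas with collagenase. The labels state neither the strain nor the adult age, and say nothing of the sex of the P10 rats or how many made up a pool. The comparison concerns how the islet transcriptome changes as islets mature after birth.

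Endocrine cells of the pancreas arise from progenitors in which the transient factor Neurog3 switches on a set of DNA-binding proteins that then stay on in the mature cells. Neurod1 is a basic helix-loop-helix (bHLH) protein that binds E-boxes and activates insulin genes, Isl1 is a LIM-homeodomain protein of all islet endocrine cells, and Pax6 is a paired-box protein needed for hormone gene expression. Nkx6-1 is a homeodomain protein that in the mature islet marks beta cells, while Pax4 favours the beta and delta fates during development and is weakly expressed later. The Foxa proteins are forkhead factors that open chromatin in organs derived from the gut tube. Foxa1 and Foxa2 act in pancreas development, and Foxa3 is best known from liver and intestine.

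In adult islets 5 of the 8 genes were higher, namely Nkx6-1, Pax6, Neurod1, Isl1 and Foxa2. Pax4 and Foxa3 were lower, and Foxa1 did not pass the test. Over all 18362 tested probes, 21.3% were called higher and 31.0% lower at a limma adjusted p under 0.05, so 52.3% were called in either direction. With quantile normalization the same 5 genes were called higher and the same 2 lower, against 30.0% and 27.2% of named protein-coding genes. Every adult array was above every P10 array for 5 of the 8 genes and below for 2, against 31.5% and 45.2% of all tested probes. The median change of the 8 genes was 1.33 on the log2 scale, against -0.13 for 11397 named protein-coding genes. In whole islets, a smaller share of cells that express a gene and less RNA per cell cannot be told apart.

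Between 17829 and 18731 probes per array were well above background and none of the spots was saturated. Adult arrays 2 and 3 differed by 1.09 times the variance expected from the noise between spots, and P10 arrays 1 and 2 by 0.841 times. P10 array 3 differed from P10 arrays 1 and 2 by 2.32 and 1.46 times, not far above spot noise. Adult array 1 differed from adult arrays 2 and 3 by 43.4 and 36.6 times. Each of the first 2 pairs was therefore averaged and counted as 1 sample, which gives n = 2 per stage. Nothing in the values settles whether such arrays carry separate RNA, and the p-values measure the spread between these samples. By scan and array position, adult array 1 shared slide 1 with the 3 P10 arrays, and adult arrays 2 and 3 were on slide 2. Levels below are log2 signals after subtracting the array's own 75th percentile. A change is the adult level minus the P10 level, given with its standard error (SE), and the small number of arrays limits its precision. The hormone genes Ins1, Ins2, Gcg and Sst, which define islets, were well above background on all 6 arrays.

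RefSeq promoter sequences were available for 7 of the 8 genes. The 250 bases before the transcription start are shown for 3 genes that were higher in adults (Nkx6-1, Neurod1 and Isl1) and for the Foxa2 and Foxa3 pair, whose members moved in opposite directions. Capitals mark E-boxes (CANNTG, which reads as CANNTG on both strands), the type of site bound by bHLH factors such as Neurod1.
Nkx6-1 (GRCr8 chr14:8273988-8274237, plus strand): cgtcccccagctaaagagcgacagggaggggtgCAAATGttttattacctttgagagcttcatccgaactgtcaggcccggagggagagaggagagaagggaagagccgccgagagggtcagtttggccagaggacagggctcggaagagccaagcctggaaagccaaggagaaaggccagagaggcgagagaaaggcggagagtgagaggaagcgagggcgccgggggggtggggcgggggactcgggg
Neurod1 (GRCr8 chr3:84770455-84770704, minus strand): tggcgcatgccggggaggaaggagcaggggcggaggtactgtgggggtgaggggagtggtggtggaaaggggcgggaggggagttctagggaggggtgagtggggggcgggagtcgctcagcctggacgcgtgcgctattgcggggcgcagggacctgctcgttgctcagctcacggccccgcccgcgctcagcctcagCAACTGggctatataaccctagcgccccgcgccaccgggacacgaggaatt
Isl1 (GRCr8 chr2:49823443-49823692, minus strand): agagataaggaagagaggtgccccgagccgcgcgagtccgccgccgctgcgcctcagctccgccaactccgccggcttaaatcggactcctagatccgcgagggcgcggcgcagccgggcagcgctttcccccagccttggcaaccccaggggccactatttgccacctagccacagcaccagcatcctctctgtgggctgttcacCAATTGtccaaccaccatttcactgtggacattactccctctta
Foxa2 (GRCr8 chr3:155927509-155927758, minus strand): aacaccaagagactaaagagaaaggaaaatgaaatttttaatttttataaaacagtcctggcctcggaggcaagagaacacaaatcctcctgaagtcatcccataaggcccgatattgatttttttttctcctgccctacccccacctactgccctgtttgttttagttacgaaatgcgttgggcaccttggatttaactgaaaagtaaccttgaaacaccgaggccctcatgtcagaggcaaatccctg
Foxa3 (GRCr8 chr1:87799486-87799735, minus strand): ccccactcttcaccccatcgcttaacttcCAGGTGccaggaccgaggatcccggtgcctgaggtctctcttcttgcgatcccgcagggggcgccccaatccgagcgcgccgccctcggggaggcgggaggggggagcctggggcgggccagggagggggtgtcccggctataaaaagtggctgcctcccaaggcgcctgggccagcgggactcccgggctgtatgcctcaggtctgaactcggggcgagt
One E-box was found in each of 4 of the 7 promoters. It began 51 bases before the start in Neurod1, 44 bases before it in Isl1, 217 in Nkx6-1 and 221 in Foxa3. Of 33469 rat promoters, 65.5% held an E-box in the same window, so its presence does not set these genes apart. The homeodomain core TAATTA (4.86% of all promoters) and the forkhead core TGTTTAC (3.21%), both searched on either strand, were not among the letters of these 7 windows. Base composition differed within the group, with a GC content of 69.6% for Foxa3, 69.2% for Neurod1, 62.8% for Isl1 and 62.4% for Nkx6-1, against 42.8% for Foxa2, 46.4% for Pax4 and 42.0% for Pax6. The median over all promoters was 51.2%. High and low GC content occurred both among genes that rose and among genes that fell.

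**Figure D1:**
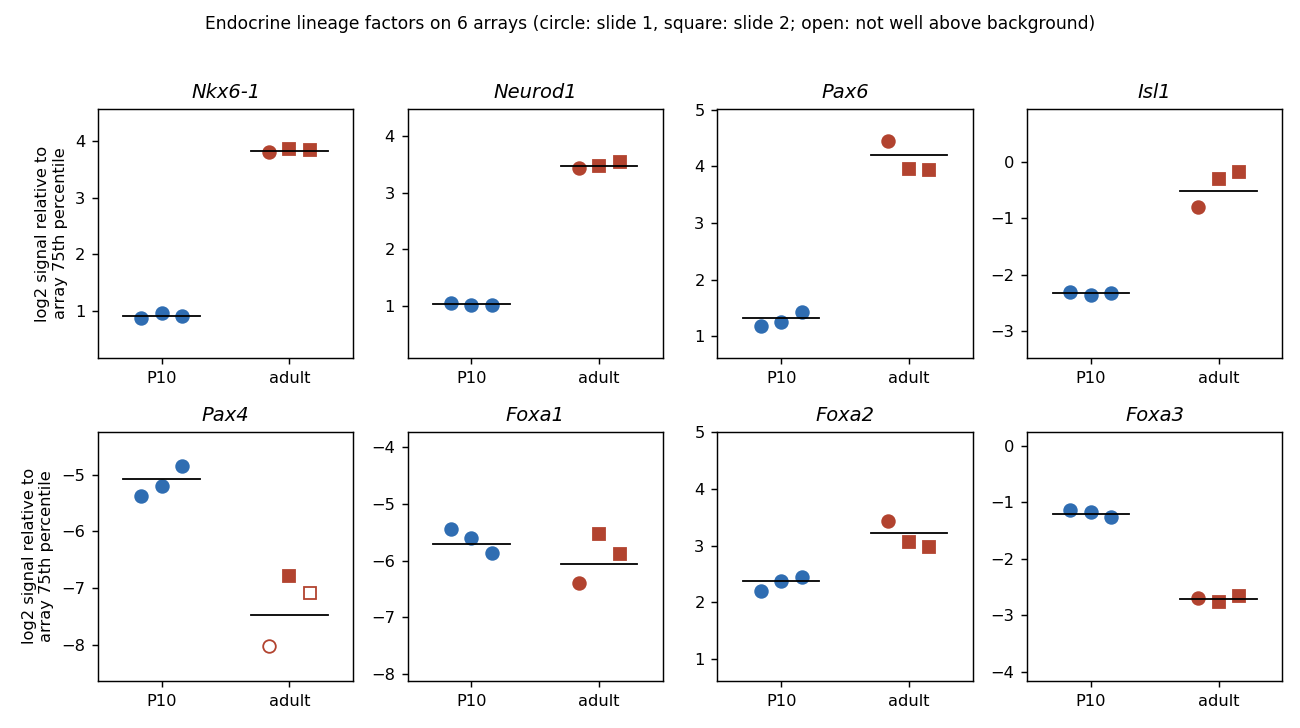
Log2 level (75th percentile of each array set to 0) of the 8 genes on 6 arrays, with circles for slide 1, squares for slide 2, open symbols where the probe was not well above background, and lines at the mean of the 2 counted samples per stage; every panel spans 4.4 log2 units. The adult arrays lie above the P10 arrays for Nkx6-1, Neurod1, Pax6, Isl1 and Foxa2, below them for Pax4 and Foxa3, and among them for Foxa1.

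Nkx6-1, the beta cell factor, stood at 3.81, 3.87 and 3.84 on adult arrays 1 to 3 and at 0.87, 0.96 and 0.91 on the P10 arrays. The nearest adult and P10 arrays were 2.85 apart, far beyond the spread within either stage. The change was 2.92 (SE 0.13, limma adjusted p = 0.00135), or 7.59-fold, the steepest rise among the 8 genes. Before scaling, the probe gave a signal of 28010 to 36860 in adults and 1861 to 1879 at P10.

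Neurod1, the bHLH activator, stood at 3.44, 3.48 and 3.55 on the adult arrays and at 1.06, 1.01 and 1.02 at P10. The arrays of a stage lay close together and the stages did not overlap. The change was 2.45 (SE 0.13, limma adjusted p = 0.00156), or 5.47-fold. Pax6, the paired-box factor of all islet endocrine cells, stood at 4.44, 3.96 and 3.94 in adults and at 1.19, 1.26 and 1.43 at P10. Here adult array 1 was higher than adult arrays 2 and 3, and every adult array was above every P10 array. The change was 2.87 (SE 0.23, limma adjusted p = 0.00279), or 7.30-fold.

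Isl1, the LIM-homeodomain factor, stood at -0.80, -0.31 and -0.18 in adults and at -2.31, -2.36 and -2.32 at P10. Adult array 1 was the lowest of the adult arrays, in contrast to Pax6, and the stages again did not overlap. The change was 1.81 (SE 0.24, limma adjusted p = 0.00757), or 3.50-fold. For these 4 genes the change stayed between 1.53 and 3.22 and passed the test under all 18 alternative settings. On slide 1 alone, where 1 adult array is set against the P10 arrays and the spread comes from P10 only, it was 2.90 for Nkx6-1, 2.41 for Neurod1, 3.15 for Pax6 and 1.53 for Isl1.

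The 3 Foxa genes, close relatives in one family, did not move together. Foxa2 stood at 3.43, 3.06 and 2.97 on the adult arrays and at 2.19, 2.37 and 2.45 at P10. The stages did not overlap, but the gap between the nearest arrays was 0.517. The change was 0.86 (SE 0.21, limma adjusted p = 0.0325), or 1.81-fold, and without P10 array 3 it was 0.94 and did not pass (limma adjusted p = 0.163).

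Foxa3, of liver and intestine, stood at -2.70, -2.77 and -2.65 in adults and at -1.14, -1.17 and -1.27 at P10. All adult arrays were below all P10 arrays, by at least 1.38. The change was -1.49 (SE 0.13, limma adjusted p = 0.00345), a level 2.81-fold lower in adults. Before scaling the signals were closer, at 300.1 to 403.2 in adults and 414.4 to 460.9 at P10. The percentile used for scaling was itself higher in adults (10.93 to 11.36 in log2) than at P10 (9.92 to 9.99). With quantile normalization the change was -1.40 (limma adjusted p = 0.00266).

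Foxa1 stood at -6.40, -5.53 and -5.88 in adults and at -5.45, -5.61 and -5.87 at P10. The stages overlapped, and the probe was dim, with signals of 17.1 to 44.2 that were still well above background on all 6 arrays. The change was -0.35 (SE 0.31, 95% interval -1.21 to 0.50, limma adjusted p = 0.375). Its sign depended on the scaling, since quantile normalization gave 0.44 (limma adjusted p = 0.0832). It was -0.76 on slide 1 alone, where a single adult array stands against P10 arrays that supply all the spread, and 0 without adult array 1 (limma adjusted p = 0.982). No direction can be given for Foxa1.

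A difference between 2 genes on the same array does not change with a scaling that shifts the whole array. The log2 signal of Foxa2 minus that of Foxa3 was higher in adults by 2.35 over the counted samples, with a standard deviation (SD) of 0.29 in adults and 0.20 at P10 (n = 2 each). For Foxa1 minus Foxa3 the difference was 1.14, with SDs of 0.50 and 0.16 (1.84 with quantile normalization). In both pairs the arrays of the stages did not overlap, also with quantile normalization. For Foxa2 minus Foxa1 it was 1.21, with SDs of 0.79 and 0.36, but 0.45 with quantile normalization, where the arrays overlapped. With 2 counted samples per stage an exact two-sided permutation test cannot go below 0.333, which each of the 3 pairs gave, so these differences are descriptions. Taking all 6 arrays as separate samples gave 0.1, but that counts arrays within spot noise of each other more than once.

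Pax4 was the dimmest of the 8 on adult arrays and had the largest fall of the 8 under this scaling. It stood at -8.03, -6.78 and -7.09 in adults and at -5.37, -5.20 and -4.85 at P10. All P10 arrays measured it well above background, against 1 of the 3 adult arrays, so it passed the filter through the P10 arrays alone. The change was -2.41 (SE 0.44, limma adjusted p = 0.0163), or 5.33-fold lower in adults, and rests on adult signals of 10.1 to 18.6 against 24.7 to 34.6 at P10. The size depended strongly on how near-background signals were treated: it was -1.53 with quantile normalization and -0.36 with normexp background correction, both past the test. The fall was -2.89 on slide 1 alone and -1.87 without adult array 1.

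**Figure D2:**
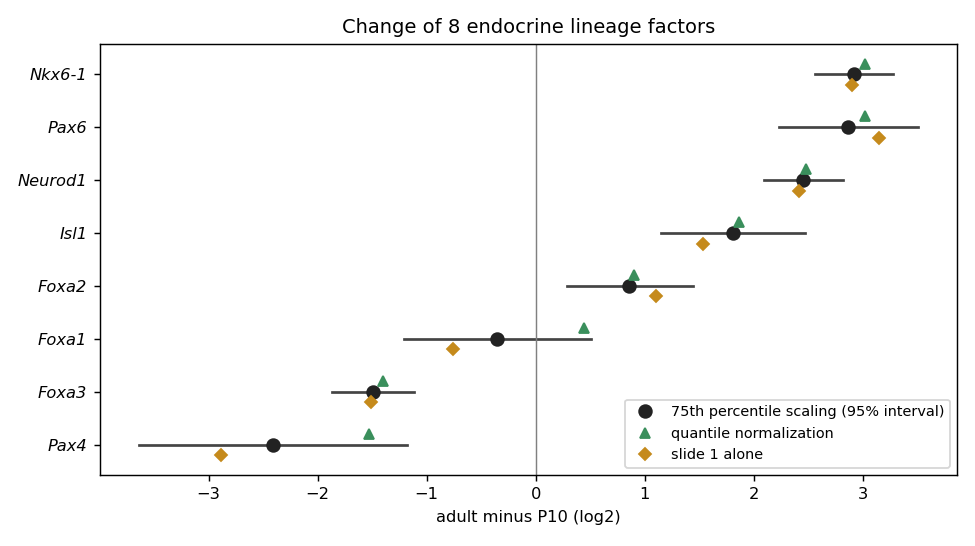
Change from P10 to adult islets in log2 for each gene, with the 95% interval of the limma fit (n = 2 counted samples per stage) as a line, and the values with quantile normalization and on slide 1 alone as further symbols. Nkx6-1, Pax6, Neurod1, Isl1 and Foxa2 lie above 0 in all 3, Foxa3 and Pax4 below 0 in all 3, and Foxa1 on both sides.

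The signals of general endocrine genes rose on the same arrays. Of 14 tested pan-endocrine genes of hormone granules and vesicles, such as Chga (1.75) and Scg2 (2.41), 12 were higher in adults. Stx1a was lower (-0.52, limma adjusted p = 0.0388). The mean over the 13 genes measured on every array, which leaves out Stx1a, was 2.10 higher. The median change of the 14 genes was smaller, at 1.64, so values relative to this mean depend on that choice. Without P10 array 3 the higher calls numbered 7. Their summed signal, in units of the array's 75th percentile, was 453 to 523 in adults and 134 to 137 at P10. Under this scaling the sums of the beta and alpha cell lists, both led by hormone genes, did not differ in this way. The sum of the delta, PP and epsilon cell markers was higher in adults, at 252 to 294 against 178 to 194 at P10. Beta cell markers, of which 4 of 7 were higher, summed to 251 to 356 in adults and 328 to 363 at P10. Alpha cell markers, of which 5 of 8 were higher, summed to 121 to 177 and 160 to 171. The hormone genes Ins1, Ins2 and Gcg changed by -0.93, -0.58 and -0.8, but by 0.18, 0.45 and 0.32 with quantile normalization. Iapp changed by 0.47 and 1.5. The median of the 14 pan-endocrine genes was then 2.37. How the sums compare with quantile normalization was not tested. Set against the pan-endocrine mean of the same array, over the counted samples, Nkx6-1 was 0.82 higher in adults (SD 0.095 in adults, 0.013 at P10, n = 2 each) and Pax6 was 0.77 higher (SD 0.47 and 0.16), and each was 0.44 higher with quantile normalization. Neurod1 was 0.35 higher, but -0.10 with quantile normalization, so its direction relative to these genes is not settled. Isl1 stood at -0.30 (SD 0.26 and 0.027) with overlapping arrays, and at -0.72 with quantile normalization, where its arrays did not overlap.

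Relative to the same mean, the difference was -1.24 for Foxa2, -2.46 for Foxa1 and -3.59 for Foxa3, and the 3 genes kept this sign with quantile normalization. Pax4 was also below that mean, at -4.52 and at -2.75 with normexp correction, but 2 of its 3 adult arrays were not well above background, so the size is not settled. The exact two-sided permutation p over the counted samples was 0.333, the smallest possible, for each gene. Over 6 arrays it was 0.2 for Isl1 and 0.1 for the other 7 genes (0.11 after Benjamini-Hochberg adjustment over the 11 within-array comparisons, and 0.2 for Isl1), with the same reservation about near-identical arrays. What share of the members' rises goes with endocrine RNA as a whole was not tested.

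**Figure D3:**
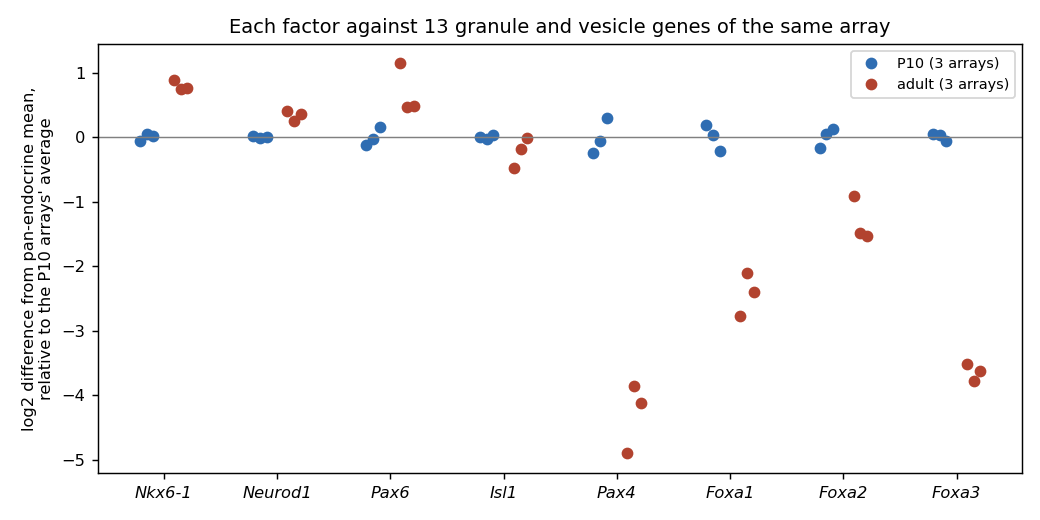
Log2 signal of each gene minus the mean of 13 pan-endocrine genes of the same array, centred on the average of the 3 P10 arrays, with each point 1 array under 75th percentile scaling. Adult arrays lie at 0.75 to 0.89 for Nkx6-1, at -0.48 to -0.02 for Isl1, and between -3.52 and -3.78 for Foxa3.

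Among 11182 other named genes measured on all 6 arrays, those with the most similar profile were found by the root mean square difference between profiles centred on their own mean. The closest to Nkx6-1 was Gad1, which makes the transmitter GABA, at a difference of 0.054 log2 units, and the closest to Pax6 was Prrt1 at 0.051. Ptprcap was closest to Neurod1 (0.020), Map1a to Isl1 (0.034), Cct8l2 to Foxa2 (0.024) and Rps24 to Foxa3 (0.030). For the dim probes the nearest profiles were Or1e25 for Pax4 (0.13), less alike than for the other genes, and C1h16orf82 for Foxa1 (0.058). All profiles share the same 6 arrays and 2 stages, so the values describe likeness on these arrays alone.

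Other transcription factors of islet cells also tended to be higher in adults. Of 27 listed, 15 were tested and 8 were higher, 4 lower and 3 not called, with a median of 1.62. Among named protein-coding genes 23.7% were higher and 28.7% lower. Etv1 rose by 2.96 (SE 0.16, limma adjusted p = 0.00156) and St18 rose by 2.80. Nkx6-3, a paralogue of Nkx6-1 known from stomach, fell by 3.53, and Hnf4a, shared with liver and intestine, fell by 1.78. Without P10 array 3 the lower calls of this list numbered 2. Neurog3, the upstream inducer of Neurod1 and Pax4, stood at 0.16 (limma adjusted p = 0.632), but was called higher with quantile normalization, at 0.63 (limma adjusted p = 0.0226). Pdx1, Mafa, Nkx2-2, Insm1 and Rfx6 were not matched to a probe and are not analysed here.

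Factors of pancreatic progenitors and partners of Foxa proteins went the other way. Of 8 tested, 7 were lower in adults, with a median of -2.27. Gata4 fell by 5.58, Nr5a2 fell by 4.24 and Ptf1a fell by 4.08. Ptf1a, Nr5a2 and Gata4 are also genes of acinar cells. Of 17 acinar markers 15 were lower in adults (6 with quantile normalization). Ptf1a and Bhlha15 were among them, and both also count among the 7 lower genes of this list. The summed acinar signal was 854 to 1200 in adults and 2460 to 2620 at P10. This sum is in units of a percentile that was itself higher in adults. The median change of the acinar list was -1.41, but -0.29 with quantile normalization, so how far acinar RNA fell depends on the scaling. With quantile normalization Gata4 changed by -5.5, Nr5a2 by -3.8 and Ptf1a by -4.06. All 14 tested enterocyte markers were also lower in adults. The part of acinar, intestinal or other RNA in the falls of Ptf1a, Nr5a2 and Gata4 was not tested.

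Relatives of the 8 genes by DNA-binding domain were split. Of 11 tested, 3 were higher and 7 lower in adults, with a median of -1.37. Among named protein-coding genes 23.7% were higher and 28.7% lower. With only probes well above background on all 6 arrays, the counts were 2 higher and 4 lower. Neurod4, a relative of Neurod1, rose by 4.27 (SE 0.25, limma adjusted p = 0.00178) and was well above background on 1 of 3 P10 arrays. Pax2 rose by 2.28 and Lhx1 by 1.80. Atoh1, the bHLH factor of secretory cells of the gut, was well above background on all P10 arrays and not on any adult array, and was at least 13.8-fold lower in adults (limma adjusted p = 0.00132), a bound taken from the lowest well-measured signal of each array. Lmx1a fell by 2.99, measured on 1 of 3 adult arrays, and Pax5 by 2.02. Atoh1, Lmx1a and Neurod2 passed the filter through the P10 arrays alone, and Neurod4 through the adult arrays alone. For these genes the filter favoured the direction found. The lower calls numbered 4 without P10 array 3 and 3 with the authors' normalized values, and the higher calls 5 without adult array 1.

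Most binding partners and inhibitors of bHLH and LIM factors did not pass the test, 12 of 18, with 2 higher, 4 lower and a median of -0.29. The LIM complex gene Ssbp3 rose by 1.23 (limma adjusted p = 0.0361), and Id2, an inhibitor of bHLH proteins, fell by 1.31 (limma adjusted p = 0.00427). The direct partners, picked out after their values were seen, stood at -0.62 for Tcf3, which pairs with Neurod1 (limma adjusted p = 0.0694), and -0.41 for Ldb1, which binds Isl1 (limma adjusted p = 0.11). With quantile normalization Tcf3 passed, at -0.65 (limma adjusted p = 0.0421), and Ldb1 did not, at -0.45 (limma adjusted p = 0.0816). With every array as its own sample the counts were 5 higher and 9 lower, and without adult array 1 they were 5 and 7. Without P10 array 3, which leaves 1 counted sample at P10, limma called 0 genes higher and 0 lower (0 and 1 at an unadjusted p under 0.05).

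Genes known as targets of the 8 factors in islets were mostly higher in adults. Of 17 tested, 12 were higher, 2 lower and 3 not called, with a median of 2.28. Among named protein-coding genes 23.7% were higher and 28.7% lower. All 7 tested beta cell markers are also in this list, so the counts of the 2 lists are not separate. Whether these rises are linked to those of the factors was not tested. The convertase gene Pcsk1 rose by 3.57, the receptor gene Glp1r by 3.19 and the glucose transporter gene Slc2a2 by 3.18. The channel genes Kcnj11 (2.63) and Abcc8 (2.28), both known to depend on Foxa2, rose as well. The 2 lower calls were the hormone genes Ins1 at -0.93 (limma adjusted p = 0.0248) and Gcg at -0.80 (limma adjusted p = 0.0436), and neither passed with quantile normalization, at 0.18 and 0.32 (limma adjusted p = 0.291 and 0.083). Kcnj11, Abcc8, Ins1 and Gcg were picked out after their values were seen. Without P10 array 3 the list had 10 higher calls, and neither hormone gene passed.

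**Figure D4:**
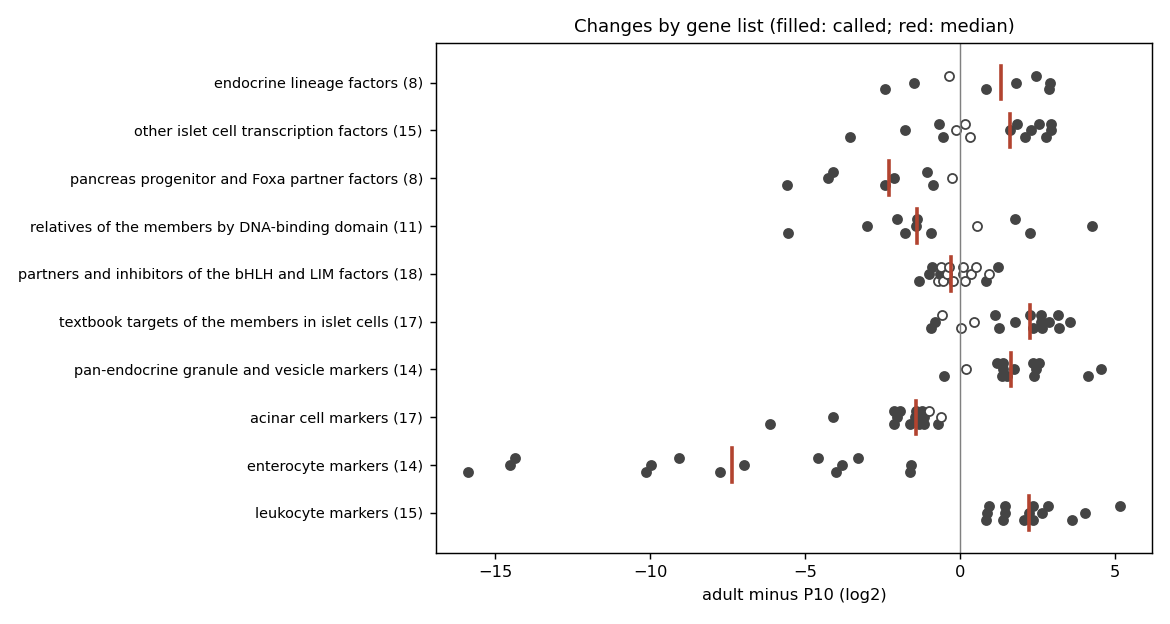
Change from P10 to adult islets in log2 for each tested gene of 10 lists, with the number tested in parentheses, filled points for limma adjusted p under 0.05 and red lines at the medians. The endocrine lineage factors, other islet factors, targets and pan-endocrine genes have medians from 1.33 to 2.28, and the progenitor factors, relatives, acinar and enterocyte markers have medians from -1.37 to -7.35.

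Markers of other cells moved with the stage on the same arrays. All 14 tested enterocyte markers were lower in adults, with a summed signal of 10.3 to 11 against 294 to 310 at P10. Apoa4 was not well above background on any adult array, and Fabp1 and Fabp2 were on only 1 each. These genes passed the filter through the P10 arrays, so the filter favoured their direction. The same holds the other way for the leukocyte markers Cd79b and Itgam, which were not well above background on any P10 array. Foxa3 and Hnf4a, also expressed in intestine and liver, fell on these arrays, and the part of intestinal RNA in their falls was not tested. Of 7 tested enteroendocrine genes 4 were lower, among them Sct at -5.06 and Cck at -5.14, and 2 higher (1 without P10 array 3). Enteroendocrine cells of the gut also use Neurod1, Pax4, Pax6 and Isl1, and their part in the changes of these genes was not tested. Of 9 hepatocyte markers 4 were higher and 4 lower. Of 8 duct markers 2 were higher and 5 lower, with sums of 41 to 47.5 in adults and 78.3 to 82.1 at P10. Of 6 fibroblast and stellate cell markers 1 was higher and 3 lower, with sums of 53.6 to 56.3 and 107 to 114. The median of the latter list was -0.43, and -0.03 with quantile normalization. Of 7 endothelial markers 1 was higher and 6 were not called, with sums of 44.3 to 53.4 in adults and 36.5 to 37.4 at P10. Of 7 delta, PP and epsilon cell markers 3 were higher and 1 lower, with sums of 252 to 294 and 178 to 194. All 15 tested leukocyte markers were higher in adults (9 of 15 without P10 array 3), with a summed signal of 67.3 to 78.0 against 16.8 to 17.6. Of 10 Schwann cell and neuron markers 6 were higher, among them Tubb3 (3.54) and Stmn2 (3.27), with a summed signal of 8.51 to 10.4 against 2.66 to 2.78. Neurons can also express Isl1, Neurod1 and Pax6, and their part in these rises was not tested.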

How the data were processed

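The deposited scanner files hold spot intensity, which per the file headers was background-subtracted within each array and not scaled between arrays; the submitters' processing notes name Agilent Feature Extraction 11.0.1.1. The authors also deposited normalized log2 values for 16038 probes by a method not given in the sources used here. Of these, 98.8% lay within 0.05 of quantile-normalized intensity, and they were used as an alternative. The array annotation uses an older build (rn4), so its positions are not given. The promoter positions above are those of GRCr8.

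Outlier spots were left out, log2 intensity was averaged per probe and each array's 75th percentile subtracted. Symbols came from RefSeq accessions of GRCr8, which named 14294 of 24684 probes, and a gene entered with its brightest probe. Probes well above background on all arrays of a stage (18362) were fitted in R 4.3.3 (limma 3.58.1). P-values were adjusted over all of them by the Benjamini-Hochberg method, and those under 0.05 were called. Arrays within spot noise of each other were averaged. The fit was tested on simulated data.

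The genes, lists and tests were chosen with earlier results of these data known. From the lists of related factors the text names at most 3 rises and 3 falls of at least 1 log2 unit, a fixed set of islet factors whatever their values (among them Pdx1, Mafa, Nkx2-2, Neurog3, Insm1 and Rfx6), and at most 3 genes per marker list. Some genes this rule names are not reported here. The normexp alternative used median spot signals, because the files hold no mean signal.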

Additional observations from a re-analysis of the deposited data

How the results depend on the processing

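The rises of Nkx6-1, Neurod1, Pax6 and Isl1 and the fall of Foxa3 kept their direction and passed the test under 18 alternatives each, from 2.90 to 3.22, 2.41 to 2.75, 2.62 to 3.17, 1.53 to 2.11 and -1.55 to -1.16. Foxa2 ranged from 0.65 to 1.16 and passed under 17 of 18, failing without P10 array 3. Leaving out 1 array at a time gave 4 to 5 genes higher and 2 lower. Pax4 ranged from -2.89 to -0.36 under 16 alternatives. Because it is not among the authors' normalized values and not well above background on all 6 arrays, 1 gene was called lower under each of those settings. Foxa1 ranged from -0.76 to 0.44 and was called lower with slide as a block and on slide 1 alone, where 3 genes were lower; both rest on the 1 adult array that shares a slide with P10. The difference of Neurod1 from the pan-endocrine mean over 6 arrays turned to -0.0863 with quantile normalization; the cause was not tested. Taking the counted samples for such differences was chosen after seeing the data. The median of all tested probes was -0.23, and -0.03 with quantile normalization.

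The labels give both stages replicate numbers 1 to 3 for different animals. Deviations of same-numbered arrays correlated at -0.21, 0.08 and -0.24. Because the P10 arrays differ by little more than spot noise, these values cannot decide whether the numbers pair the arrays. A fit with the replicate block, every array as its own sample, called 5 genes higher and 2 lower, and over all probes 4713 higher and 6786 lower, against 5307 and 7470 without the block. Over all probes, 3909 higher and 5698 lower calls became 1577 and 2591 without P10 array 3. Signals near background, as for Pax4 and Foxa1, limit how well a change can be sized.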
